A study of Bos taurus with 12 samples.

Results

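S100A8, S100A9, S100A12 and FCN1 are genes of circulating neutrophils and monocytes, and their transcripts were read here in the granulosa and theca layers of bovine ovarian follicles. The probe sets were chosen by annotation alone: every probe set that the platform's probe-to-gene table assigns to 1 of these 4 symbols was taken. That gave 5 probe sets of the 24016 on the array that are not controls, with 1 each for S100A8 (calgranulin A), S100A12 (calgranulin C) and FCN1 (ficolin-1) and 2 for S100A9 (calgranulin B). All 5 probe sets passed the filter on dim probe sets, which asked for a mean above a signal of 22.5 in at least 1 group, and each of them passed it in large-follicle granulosa cells. S100A12 passed in all 6 groups, S100A8 in 4 and FCN1 in the 3 granulosa groups. Of the S100A9 probe sets, 1 passed in large-follicle granulosa cells and theca and the other (probe set 1 below) in large-follicle granulosa cells alone, so the latter entered the tests through the group where it was high.

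The calgranulins are small calcium-binding proteins that neutrophils and monocytes store in quantity. S100A8 and S100A9 pair to form calprotectin, which binds zinc and manganese and is released where myeloid cells are activated, and calprotectin and S100A12 act on the receptors TLR4 and AGER (RAGE). FCN1 is a secreted and membrane-bound lectin of monocytes and neutrophils that recognises acetylated sugars and starts the lectin pathway of complement through MASP proteases. In the ovarian follicle, the theca is vascular and holds resident leukocytes, whereas the granulosa layer lies inside a basement membrane and has no vessels of its own until ovulation.

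Ovaries came from young, cycling, non-pregnant heifers (Bos taurus), were untreated, and were taken at the follicular stage; no breed or allele is given in the labels. Granulosa and theca cells were collected from follicles of 3 size classes, small at 5 mm or less, medium between 5 and 10 mm, and large above 10 mm, giving 6 groups of 2 arrays and 12 arrays in all. Each RNA was a pool, of 20 to 40 follicles by the extraction protocol and of 20 to 40 ovaries from 6 to 10 animals by the design text, so the spread between animals is not seen. The replicates are called separate and biological, but whether pools shared animals is not stated, and p-values measure only the spread between these pools. Group names follow the sample titles, because the description field names theca for all 12 samples. These are bulk samples, so fewer cells of a type and less RNA per cell cannot be told apart.

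Of the array-wide facts, these touch the values below. Summed theca markers ran from 19449.5 to 31456 on the 6 theca arrays and from 2098.7 to 3540.1 on the 6 granulosa arrays, so the titles and the theca marker levels match, whereas summed granulosa markers overlapped (22478.8 to 34499.1 in granulosa, 9842.4 to 25263 in theca). A pair of arrays stood apart. On large-follicle granulosa replicate 1 the median signal was 48.8 (33.7 to 39.2 on the other 11), the actin ratio of 3' to 5' probe sets lay above the 2.39 to 11.2 of the others, and the haemoglobin beta (HBB) signal was 578.5, against 50.4 on replicate 2 and 7.7 to 34.7 on the other 10 arrays. Small-follicle theca replicate 1 had a GAPDH 3' to 5' ratio of 8.36, against 0.984 to 1.30 on the other 11 arrays.

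All 4 genes gave their highest signals in granulosa cells of large follicles. Both large-follicle granulosa arrays lay above the other 10 arrays on each of the 5 probe sets, at 2.14 to 5.11 times the next highest array. Signals of theca were low at every follicle size, and for S100A9 and FCN1 most theca arrays lay below the filter signal of 22.5. By mean log2 level large-follicle granulosa cells ranked first of the 6 groups on all 5 probe sets, with medium-follicle granulosa cells second except on 1 of the S100A9 probe sets. Below the first rank every neighbouring pair of groups overlapped, apart from small-follicle granulosa cells over small-follicle theca on the other S100A9 probe set. Signals of different probe sets differ in probe efficiency and are not compared with each other below.

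S100A8, the calgranulin that needs S100A9 to form calprotectin, had signals of 931.8 and 519.8 on the large-follicle granulosa arrays (replicate 1, then replicate 2, here and below). In medium-follicle granulosa cells it read 101.7 and 29.1, and in small-follicle granulosa cells 41.7 and 29.2. In theca it read 33.0 and 13.7 in small, 28.4 and 5.7 in medium, and 35.1 and 37.8 in large follicles. Both large-follicle granulosa arrays stood clear of all others, the lower of them at 5.11 times the next highest array, which was medium-follicle granulosa replicate 1. Below them each group overlapped with the next by mean, and medium-follicle granulosa replicate 2 was no higher than the small-follicle granulosa arrays.

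S100A9, the partner subunit of S100A8, was read by probe sets Bt.16201.1.S1_at and Bt.16201.2.A1_at, called probe set 1 and probe set 2 here. Probe set 1 read 127.6 and 228.7 in large-follicle granulosa cells, 37.1 and 5.3 in medium and 9.3 and 5.9 in small, with theca arrays from 1.5 to 23.6 around a median of 4.55. Probe set 2 read 103.2 and 150.2 in large-follicle granulosa cells, 36.5 and 3.7 in medium and 2.4 and 25.5 in small, with theca arrays from 3.8 to 48.3 around a median of 16.75. Both probe sets put large-follicle granulosa cells first without overlap. They differed on what came second: the next highest array was medium-follicle granulosa replicate 1 on probe set 1, at a ratio of 3.44, and large-follicle theca replicate 2 (48.3) on probe set 2, at a ratio of 2.14. On each probe set 5 of the 6 theca arrays lay below a signal of 22.5, where differences carry little weight.

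S100A12, a calgranulin that acts as a homodimer and a ligand of AGER, had signals of 1001.7 and 1576.3 in large-follicle granulosa cells. Medium-follicle granulosa cells read 204.0 and 73.4, and small-follicle granulosa cells 89.8 and 59.9. Theca read 34.9 and 53.6 in small, 57.6 and 6.6 in medium, and 35.3 and 81.3 in large follicles. The lower large-follicle granulosa array was 4.91 times the next highest array, medium-follicle granulosa replicate 1. The theca arrays overlapped with each other and, at the top of their range, with small-follicle granulosa cells.

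FCN1 read 371.6 and 392.9 in large-follicle granulosa cells, the closest pair of replicates among the 5 probe sets there. On the scale log2(signal + 16) this was 8.64 ± 0.05 (SD, n = 2), against 9.48 ± 0.58 for S100A8, 7.55 ± 0.54 and 7.14 ± 0.34 for S100A9 and 10.31 ± 0.46 for S100A12. Medium-follicle granulosa cells read 75.7 and 35.1, and small-follicle granulosa cells 15.0 and 35.3. Theca arrays ran from 3.5 to 46.7 around a median of 16.65, and 5 of 6 lay below 22.5. As for S100A8 and S100A12, the next highest array was medium-follicle granulosa replicate 1, and the lower large-follicle granulosa array was 4.91 times it. The gene has 1 probe set, Bt.3046.2.S1_at, and the platform table gives the 2 other probe sets with the same cluster number in their names to SNAI1, a transcription factor unrelated to FCN1. Those read 49.6 and 218.3, and 27.5 and 67.9, in large-follicle granulosa cells. Neither repeated the near-equal FCN1 signals there, but both had their highest signal of the 12 arrays on replicate 2 of that group. Whether the FCN1 probe set reads FCN1 alone was not tested.

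**Figure D1:**
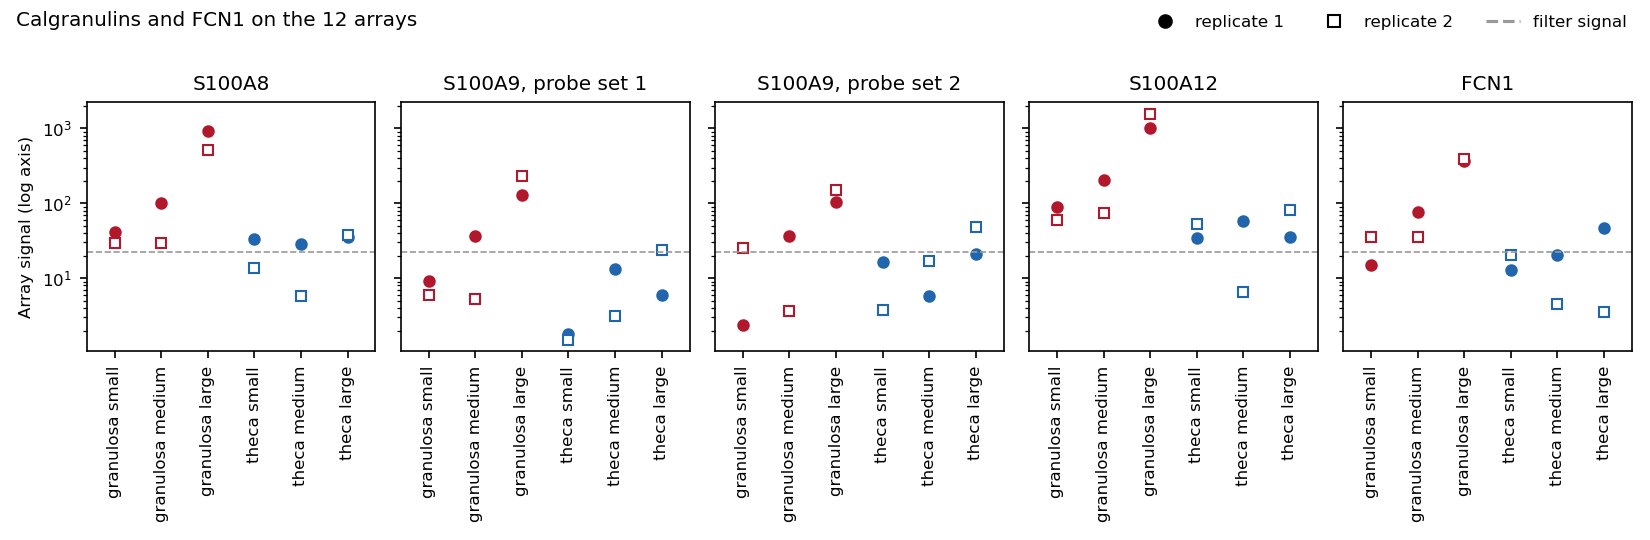
Signal of each of the 5 probe sets on every array, on a log axis, by layer and follicle size. Each point is 1 array, filled for replicate 1 and open for replicate 2, red for granulosa and blue for theca, and the dashed line marks the filter signal of 22.5. Large-follicle granulosa cells hold both highest arrays in every panel, from 519.8 to 931.8 for S100A8 and from 1001.7 to 1576.3 for S100A12.

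Large-follicle granulosa cells were compared with small-follicle granulosa cells first, the comparison that follows follicle growth in 1 layer. All 4 genes rose, by 5.09-fold to 14.2-fold on the scale log2(signal + 16), and were called, meaning a Benjamini-Hochberg adjusted p under 0.05 over all 17236 probe sets tested with limma. S100A8 was higher by 3.80 ± 0.49 on the log2 scale (adjusted p = 0.00398) and S100A12 by 3.83 ± 0.55 (14.2-fold, adjusted p = 0.00453), where ± is the standard error. FCN1 was higher by 3.32 ± 0.51 (9.98-fold, adjusted p = 0.00595). For S100A9 the change was 2.99 ± 0.45 on probe set 1 (adjusted p = 0.00587) and 2.35 ± 0.51 on probe set 2 (adjusted p = 0.0297). Probe set 1 entered through this group alone and its p supports nothing by itself; probe set 2 stands for S100A9 in the counts. Of all probe sets tested, 1.82% were called higher in this comparison, and the median change was 0.04. The arrays did not overlap for 4 of 4 genes, against 21.9% of all probe sets in this direction.

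The size of this rise did not rest on the array with the high haemoglobin signal, but its calls depended on which arrays were in the fit. Without large-follicle granulosa replicate 1 the changes were 3.39 for S100A8, 3.38 and 2.59 for S100A9, 4.15 for S100A12 and 3.36 for FCN1, and 0 of the 4 genes were called. The lowest adjusted p was then 0.0587, and 0 of all probe sets were called, against 382 in the full fit. Without small-follicle granulosa replicate 1 the count was also 0, without small-follicle granulosa replicate 2 it was 2, without large-follicle granulosa replicate 2 it was 3, and without both arrays that stood apart it was 2, S100A8 and S100A12 (adjusted p = 0.0363 for both). With log2(signal + 1) in place of log2(signal + 16), S100A8 alone was called.

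Between large and medium follicles, granulosa levels of S100A8, S100A12 and FCN1 rose and S100A9 depended on its probe set. The changes were 3.29 for S100A8 (9.78-fold, adjusted p = 0.0121), 3.18 for S100A12 (9.08-fold, adjusted p = 0.0240) and 2.54 for FCN1 (5.82-fold, adjusted p = 0.0399). S100A9 differed by 2.48 on probe set 1 (adjusted p = 0.0301, and 0.0624 with no filter on dim probe sets), which entered through large-follicle granulosa cells alone. It differed by 2.13 on probe set 2, the brighter of the pair on average, which did not pass (adjusted p = 0.0803). By the brightest probe set 3 of 4 genes were called, against 0.65% of all probe sets called higher, and the arrays did not overlap for 4 of 4, against 20% of all probe sets. The count was 0 without large-follicle granulosa replicate 1, 0 without medium-follicle granulosa replicate 2, 0 without both arrays that stood apart, 0 with log2(signal + 1) and 1 with no filter on dim probe sets. It was 2 without large-follicle granulosa replicate 2, either small-follicle granulosa array or either medium-follicle theca array, and 4 without medium-follicle granulosa replicate 1.

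Medium and small follicles gave no call for these genes in granulosa cells. The differences were 0.51 for S100A8, 0.51 and 0.22 for S100A9, 0.65 for S100A12 and 0.78 for FCN1, 0 of 4 genes passed, and 0 had an unadjusted p under 0.05. Calls were rare in this comparison, at 0.0058% of all probe sets in either direction. On all 5 probe sets medium-follicle granulosa replicate 1 read higher than replicate 2, and the arrays of the 2 sizes overlapped. With 2 arrays a group, this comparison does not show that the levels were equal.

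In theca, none of the 4 genes was called between follicle sizes by limma, and none had an unadjusted p under 0.05. From small to large follicles the differences ran from 0.11 for FCN1 to 0.95 for S100A9 on probe set 2, with adjusted p-values from 0.546 to 0.961, and 0.0348% of all probe sets were called; the arrays did not overlap for 2 of 4 genes, S100A8 and S100A9, against 17.3% of all probe sets. From small to medium follicles they ran from -0.55 for S100A12 to 0.42 for S100A9 on probe set 1, with 0.0116% of all probe sets called. From medium to large follicles they ran from 0.32 to 0.86, with 0% called and the arrays apart for the same genes, against 17.7% of all probe sets. Large-follicle theca replicate 2 gave the highest theca signal for both S100A9 probe sets and S100A12, while its FCN1 signal of 3.5 was the lowest of the 6.

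**Figure D2:**
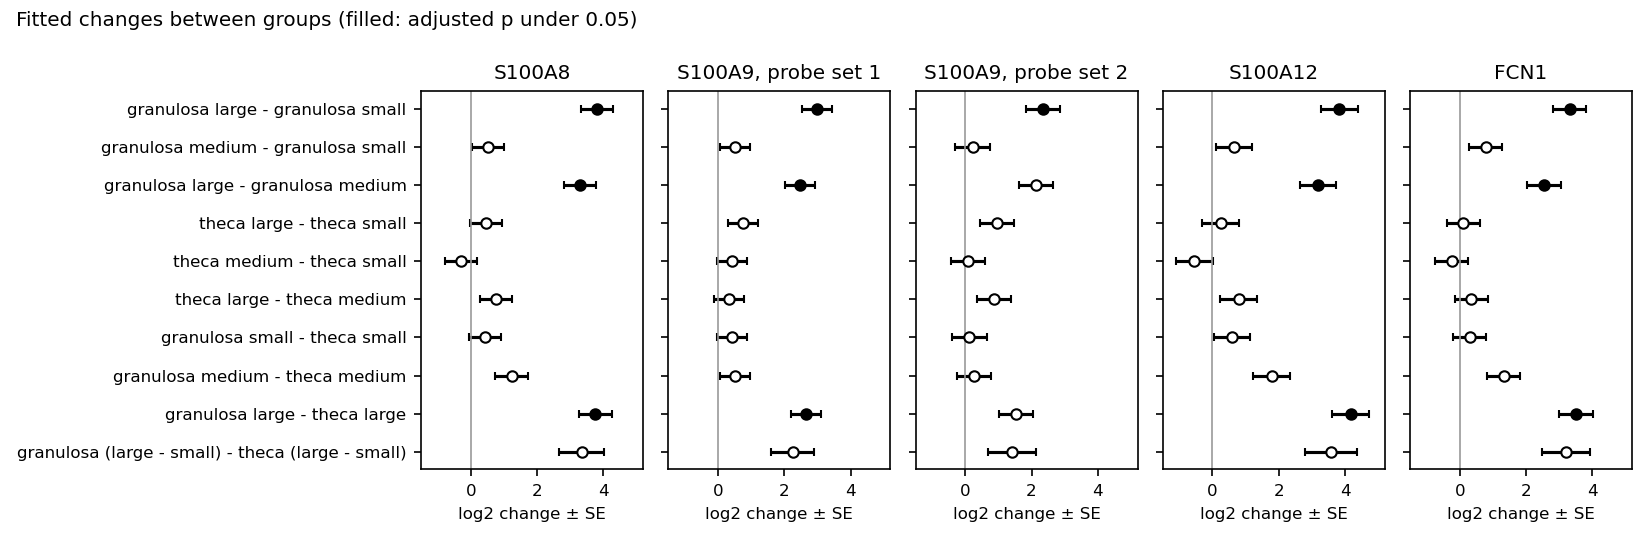
Change of each probe set on the log2(signal + 16) scale in each comparison, with its standard error; filled points passed an adjusted p under 0.05. The changes that passed all involve large-follicle granulosa cells, up to 4.17 for S100A12 between granulosa and theca of large follicles.

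Between the layers, the genes were higher in granulosa cells than in theca of large follicles. S100A12 differed by 4.17 ± 0.55 on the log2 scale (18.0-fold, adjusted p = 0.000825) and S100A8 by 3.76 ± 0.49 (13.6-fold, adjusted p = 0.000681). FCN1 differed by 3.51 ± 0.51 (11.4-fold, adjusted p = 0.00158). S100A9 differed by 2.67 ± 0.45 on probe set 1 (6.35-fold, adjusted p = 0.00481), but its difference of 1.53 ± 0.51 on probe set 2 did not pass (2.88-fold, adjusted p = 0.110). Probe set 1 entered through large-follicle granulosa cells alone, so its p supports nothing by itself here either. By the brightest probe set 3 of 4 genes were called higher in granulosa cells, against 2.02% of all probe sets, and the arrays did not overlap for 4 of 4 genes, against 32.7% of all probe sets. The median difference over all probe sets was 0.12 here and 0.0019 after quantile normalization, and the share of calls that were higher in granulosa cells was 45.8% and 34.0%. Relative to that median of 0.12 the differences were 4.05 for S100A12, 3.64 for S100A8, 3.39 for FCN1 and 2.54 and 1.40 for S100A9.

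This difference kept its calls when arrays were left out. S100A8, S100A12 and FCN1 were called in all 21 alternatives, with ranges of 2.92 to 4.22, 3.46 to 4.63 and 2.37 to 4.71 and a highest adjusted p of 0.0258, 0.0321 and 0.0472. Without large-follicle granulosa replicate 1 they differed by 3.35 (adjusted p = 0.0129), 4.49 (adjusted p = 0.00585) and 3.55 (adjusted p = 0.0164). On probe set 1, which entered through large-follicle granulosa cells alone, S100A9 was called in 19 of 21 alternatives, a count that supports nothing by itself. It lost the call without large-follicle theca replicate 1 (2.24) and with log2(signal + 1) (adjusted p = 0.0700). On probe set 2 it was called in 0 of 21.

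In small and medium follicles none of the 4 genes was called between the layers. In small follicles the granulosa-minus-theca differences were 0.42 for S100A8, 0.42 and 0.13 for S100A9, 0.59 for S100A12 and 0.30 for FCN1, with adjusted p-values from 0.542 to 0.907, against 4.06% of all probe sets called higher in granulosa cells. The arrays did not overlap for 1 of 4 genes there, S100A12, against 25.9% of all probe sets. In medium follicles they were 1.23 for S100A8, 0.51 and 0.26 for S100A9, 1.78 for S100A12 and 1.32 for FCN1. None passed, with 1.79% of all probe sets called higher, although 3 of the 4 genes had an unadjusted p under 0.05. For the same genes, S100A8, S100A12 and FCN1, both granulosa arrays lay above both theca arrays, against 30.4% of all probe sets. S100A12 came nearest (adjusted p = 0.0797) and passed without medium-follicle theca replicate 1 (2.63, adjusted p = 0.0263), the array on which it read 57.6.

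The change from small to large follicles was then compared between the layers in 1 interaction term. Granulosa exceeded theca by 3.34 ± 0.69 for S100A8, 3.58 ± 0.78 for S100A12, 3.21 ± 0.72 for FCN1, and 2.25 ± 0.64 and 1.40 ± 0.73 for S100A9. None of these passed (adjusted p = 0.127 for S100A8, S100A12 and FCN1, 0.217 and 0.519 for S100A9), while the unadjusted limma p was 0.00025, 0.000439 and 0.000521 for the first 3 genes. The test called 0.0116% of all probe sets, which is 2 of 17236. S100A8 passed without large-follicle granulosa replicate 2 (3.76, adjusted p = 0.0360) and without small-follicle theca replicate 2 (3.70, adjusted p = 0.0400). A rise in granulosa cells that differs from that in theca was thus not shown at the threshold for these genes.

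Among the other S100 genes, S100A4 and S100A2 had calls in comparisons with large-follicle granulosa cells. In small follicles S100B (-2.02, adjusted p = 0.00376) and S100A14 (-1.28, adjusted p = 0.0482) were called lower in granulosa cells than in theca. Of 16 listed, 11 were on the array and 10 were tested, and 1 of 10 rose in granulosa cells from small to large follicles: S100A4, a calcium-binding protein of motile and fibroblast-like cells as well as leukocytes, by 2.29 (adjusted p = 0.0204). The median change of the 10 was 0.34. S100A4 also rose between medium and large follicles (2.37, adjusted p = 0.0393), and in large follicles S100A4 (2.07) and S100A2 (1.56) were higher in granulosa cells than in theca, calls that were lost without large-follicle granulosa replicate 1 or either large-follicle theca array. The S100A4 rise from small to large follicles lost its call without either small-follicle granulosa array or without large-follicle granulosa replicate 1. By the gene order of the RefSeq annotation of assembly ARS-UCD2.0, S100A8, S100A12 and S100A9 are consecutive protein-coding genes, and 9 of the 10 other tested S100 genes lie on the same chromosome. The genes that flank the 3 calgranulins (LOC786371 on the S100A8 side, PGLYRP4 on the S100A9 side) have 0 named probe sets here.

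Among 18 listed receptors and signalling genes of the calgranulins, 15 were on the array and 12 were tested. From small to large follicles 3 of 12 rose in granulosa cells: CD14, the co-receptor of TLR4, by 3.67 (12.7-fold, adjusted p = 0.0041), TLR4 by 1.95 (adjusted p = 0.0396) and CXCL8, a neutrophil chemoattractant, by 1.47 (adjusted p = 0.0264). The median of the 12 was 0.73. CXCL8 read at most 36.4 on any array and entered the tests through large-follicle granulosa cells alone, so its call supports nothing by itself. CD14 read 67 and 66.1 in small, 244.5 and 101.9 in medium, and 1432.8 and 741.4 in large-follicle granulosa cells, without overlap between sizes. Of all probe sets, 13% did not overlap in this direction between small and medium and 20% between medium and large follicles. CD14 also passed between medium and large follicles (2.58, adjusted p = 0.0352) and between granulosa cells and theca of large follicles (2.79, adjusted p = 0.00616), the 1 call of 12 in each. Without large-follicle granulosa replicate 1, 0 of 12 were called in either the size or the layer comparison. The size count was also 0 without small-follicle granulosa replicate 1 and 1 without replicate 2, and the layer count was 0 without large-follicle theca replicate 2.

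The ficolin and lectin complement genes did not move together. FCN2 is an older name of FCN1 in the bovine gene table. Of 13 listed, 10 were on the array and 7 were tested. From small to large follicles C3, the central complement component, rose in granulosa cells (2.36, adjusted p = 0.0157) and SERPING1, the C1 inhibitor that also restrains MASP proteases, fell by 1.91 (adjusted p = 0.0272). In large follicles C3 was higher in granulosa cells than in theca by 3.40 (adjusted p = 0.000927), while 4 of 7 were lower: C4A (-3.66), SERPING1 (-2.79), COLEC12 (-2.52) and COLEC11 (-2.23). The median of the 7 was -2.23 there, where FCN1 was at 3.51 and 2.39% of all probe sets were called lower. In small follicles COLEC12 (-4.42), C4A (-3.25) and COLEC11 (-2.60) were also called lower in granulosa cells than in theca. The share of all probe sets called lower in small follicles was 5.08%, and SERPING1 (-1.12) was not called. In the size comparison neither C3 nor SERPING1 was called without large-follicle granulosa replicate 1 or without small-follicle granulosa replicate 1.

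Markers of leukocytes rose in the same samples, and those of red blood cells, platelets, squamous epithelium and endothelium had no call with follicle size. Of 18 neutrophil and monocyte markers on the array, 13 were tested and 7 rose in granulosa cells from small to large follicles, with a median of 1.67. The largest were CSF1R, the receptor of the monocyte growth factor (3.20), ITGB2, the leukocyte integrin beta chain (2.95), and CYBB, the NADPH oxidase subunit of phagocytes (2.90). In large follicles 4 of 13 were higher in granulosa cells than in theca, led by NCF1 (2.30), ITGB2 (2.26) and TREM1 (1.66). Their summed signal was 1815 to 3751.1 in large-follicle granulosa cells, 851.7 to 1087.6 in small and 1116.9 to 1424 in medium ones, and 577.9 to 1414.6 over the theca arrays. The granule genes CAMP, CATHL1 and CATHL4 stayed below a signal of 22.5 on all 12 arrays, and CXCR1 (1.13) and MPO (0.57) were not called. MMP9 is among both the 7 and the 4 called. It read at most 15.4 outside large-follicle granulosa cells and entered the tests through that group alone, so its calls support nothing by themselves. The size count was 0 without large-follicle granulosa replicate 1 or small-follicle granulosa replicate 1, 3 without small-follicle granulosa replicate 2 and 4 without both arrays that stood apart. The layer count of 4 was 0 without large-follicle theca replicate 2, 1 without replicate 1, and 2 without large-follicle granulosa replicate 1, either small-follicle granulosa array or either medium-follicle theca array.

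Resident macrophage markers also rose with follicle size. From small to large follicles 8 of 10 rose in granulosa cells, with a median of 3.64, led by TIMD4 (4.25), CD5L (4.23) and C1QA (3.94). In large follicles 1 of 10, CD5L (2.60, adjusted p = 0.0412), was higher in granulosa cells than in theca, a count that was 7 without large-follicle granulosa replicate 2 and 0 without replicate 1. Their summed signal was 12747.2 on replicate 1 and 3018.8 on replicate 2 of large-follicle granulosa cells, 366.1 to 415.9 in small ones, and 1145.2 to 3522.8 over the theca arrays. C1QA, a subunit of complement C1q made by tissue macrophages, read 389.5 to 973.1 on the theca arrays, above the 75.2 to 189.6 of small and medium-follicle granulosa cells. In small follicles 3 of 10 macrophage markers were lower in granulosa cells than in theca, C1QA (-2.27), C1QB (-2.21) and C1QC (-2.13). Others such as CD5L (-0.16), VSIG4 (-0.50) and CD68 (-0.52) were not called. Of all probe sets tested, 5.08% were called lower there, among them the general leukocyte markers ARHGDIB (-2.44) and HCLS1 (-1.55). The size count was 0 without large-follicle granulosa replicate 1 or small-follicle granulosa replicate 1, 1 without small-follicle granulosa replicate 2, and 2 without both arrays that stood apart.

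General leukocyte markers (11 of 12, median 3.16) and lymphocyte markers (8 of 10, median 2.30) rose as well from small to large follicles in granulosa cells, and 4 of each were higher there than in theca of large follicles (0 of each without large-follicle granulosa replicate 1 or large-follicle theca replicate 2, and 8 and 7 without large-follicle granulosa replicate 2). The largest of the first were ARHGDIB (3.75), CORO1A (3.49) and CD52 (3.44), and of the second PRF1 (2.76), JCHAIN (2.65) and CD8A (2.52). Both size counts were 0 without large-follicle granulosa replicate 1 or small-follicle granulosa replicate 1, and without small-follicle granulosa replicate 2 they were 5 and 1. Of 4 red blood cell markers 0 were called from small to large follicles, HBB differing by 2.82 (adjusted p = 0.0628). Of 2 platelet markers 0 were called there, and PF4 was higher in granulosa cells than in theca of large follicles (2.16), a call lost without large-follicle granulosa replicate 1 or large-follicle theca replicate 1. PF4, and GZMB among the 4 lymphocyte calls there, entered the tests through large-follicle granulosa cells alone. Those calls of PF4 and GZMB support nothing by themselves. Of 4 squamous epithelium markers, a tissue that also makes calgranulins, 0 rose with follicle size, and KRT14 stayed below 22.5 on all arrays. KRT10 was lower in granulosa cells than in theca of large follicles (-1.70, adjusted p = 0.0169). Of 9 endothelial markers 0 were called in either comparison, and the granulosa and theca lists gave 1 and 0 rises and 1 and 1 falls with follicle size. None of the 13 lists had a call in the interaction test. Without large-follicle granulosa replicate 2 that test called 8 general leukocyte, 7 macrophage, 6 lymphocyte, 5 neutrophil and monocyte, 2 endothelial, 1 red blood cell and 1 receptor gene, and without small-follicle theca replicate 2 it called 3 general leukocyte genes and 1 each of the neutrophil and monocyte, macrophage and endothelial lists. The part of these other cell types in the calgranulin and FCN1 values was not tested.

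**Figure D3:**
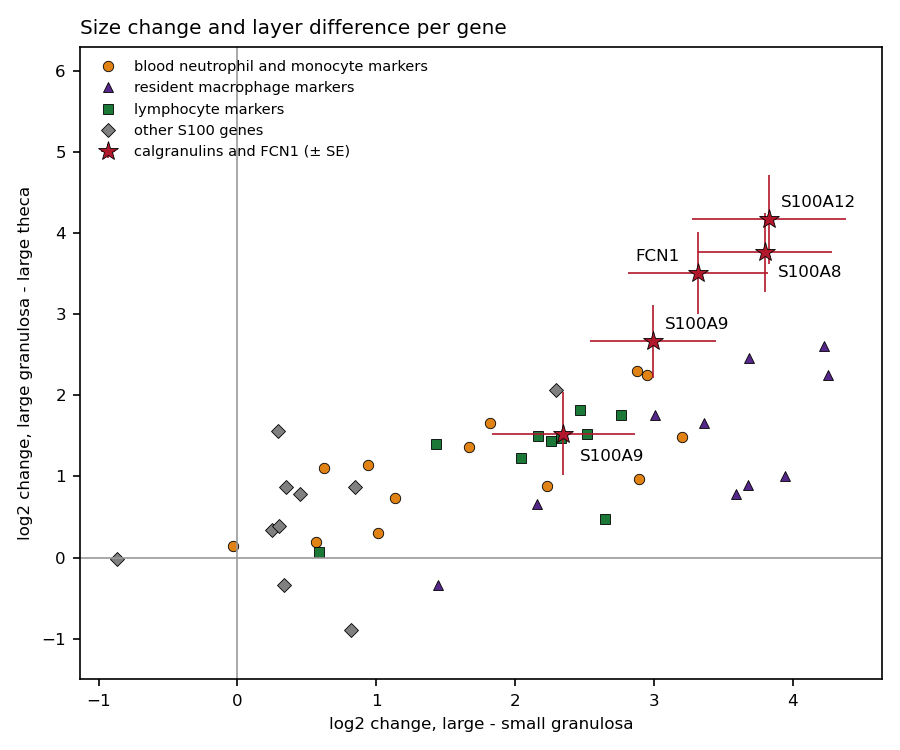
Change from small to large granulosa follicles (x axis, log2) against the difference between granulosa and theca of large follicles (y axis, log2), both on the log2(signal + 16) scale. Stars with standard errors are the 5 probe sets and other symbols the tested genes of 4 lists; S100A12 (3.83 and 4.17), S100A8 (3.80 and 3.76) and FCN1 (3.32 and 3.51) lie high on both axes. The S100A9 stars lie lower (2.99 and 2.67, 2.35 and 1.53), and the macrophage markers spread on the y axis from -0.34 for LYVE1 to 2.60 for CD5L. The y values share the large-follicle granulosa arrays with the x values, so the 2 axes are not independent.

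The 2 large-follicle granulosa arrays were then set side by side for the 4 genes and the marker lists. Replicate 2 minus replicate 1 was above 0 on 4 of the 5 probe sets, with a median of 0.48 on the log2 scale, from -0.82 for S100A8 to 0.77 for S100A9 on probe set 1; 2 of the 4 are S100A9, and FCN1 was nearly equal on both arrays (0.08). It was above 0 for 0 of 10 macrophage markers (median -1.92), 0 of 12 general leukocyte markers (median -1.38), 0 of 10 lymphocyte markers (median -1.24) and 0 of 4 red blood cell markers (median -1.25). Of all probe sets tested, 42.4% were higher on replicate 2, with a median of -0.12. Of the 13 neutrophil and monocyte markers 2 were higher on replicate 2 and 11 lower, with a median of -1.04. The 2 were TREM1, an activating receptor of neutrophils and monocytes (78.1 and 208.6), and MMP9, the gelatinase of neutrophil granules (33.9 and 58). CD14 followed the other order, at 1432.8 and 741.4, as did S100A8. These are differences between 1 array and another, with no replicate behind them and no test.

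**Figure D4:**
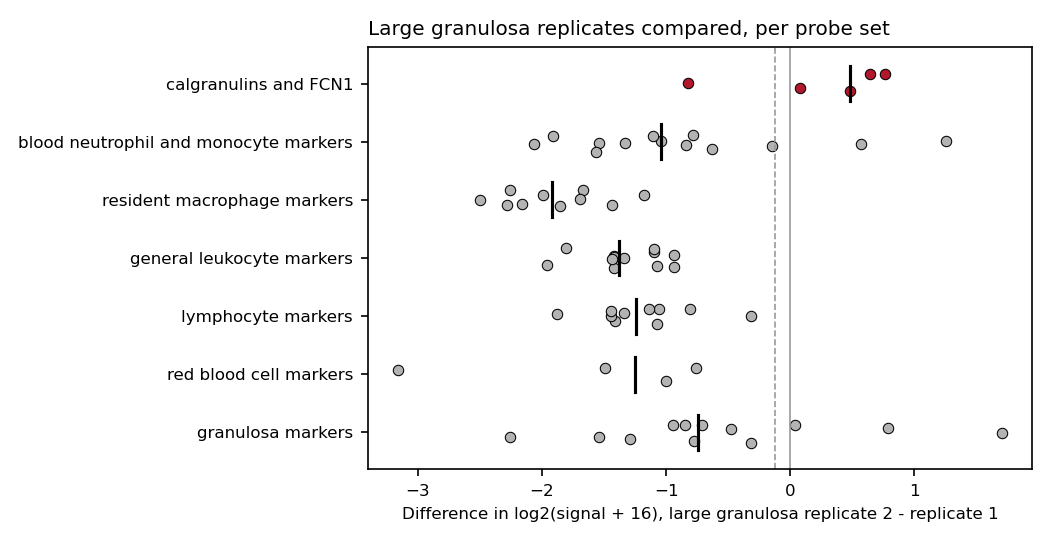
Replicate 2 minus replicate 1 of large-follicle granulosa cells on the log2(signal + 16) scale (x axis), for the 5 probe sets and the tested genes of 6 marker lists. Each point is 1 probe set, offset at random up and down, the short bars are medians and the dashed line is the median of all probe sets tested. Of the 5 probe sets 4 lie above 0, while all 10 macrophage and all 12 general leukocyte markers lie below it.

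Across the 12 arrays the correlations between probe sets ranged from 0.755 to 0.959, and over the 10 arrays without large-follicle granulosa cells from 0.0543 to 0.863. Pearson's r on log2(signal + 16) was 0.959 between S100A8 and S100A12, 0.941 between S100A8 and S100A9 on probe set 1, 0.930 between S100A8 and FCN1, and 0.913 between S100A12 and FCN1. Over those 10 arrays these values were 0.863, 0.776, 0.614 and 0.550. The S100A9 probe sets correlated at 0.888 over 12 arrays and 0.568 over 10, and probe set 1 with FCN1 at 0.874 and 0.297. Probe set 2 correlated least with the rest, at 0.832 and 0.388 with S100A8, 0.787 and 0.162 with S100A12 and 0.755 and 0.0543 with FCN1. The arrays share layers, sizes and pools, so these values are descriptions without a test.

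Of 7881 other genes, CFB, complement factor B of the alternative pathway, had the profile most like the mean of the 4 genes (r = 0.950 over 12 arrays). PGA5 (0.948), MMP9 (0.946), ARHGEF5 (0.943), SLC2A5, a fructose transporter (0.942), RNASET2 (0.935), LRRC25 (0.933), CTSZ, a lysosomal protease (0.932), PYCARD, the inflammasome adaptor (0.929), and CD14 (0.925) followed. PGA5 (at most 25.7) and ARHGEF5 (at most 26.1) were dim, and like MMP9 they had no signal above 22.5 outside large-follicle granulosa cells. CFB and BCAT1 exceeded 22.5 outside that group only on medium-follicle granulosa replicate 1 (27.1 and 25.3). All of these genes passed the filter through large-follicle granulosa cells alone, so their likeness is in part set by the filter. Without large-follicle granulosa cells the correlations of the listed genes with the mean of the 4 genes spread from 0.167 for PYCARD to 0.833 for CTSZ. The nearest gene was CTSZ for S100A8 (0.946) and for FCN1 (0.938), MMP9 for S100A9 (0.927) and CFB for S100A12 (0.953). After them came LRRC25 (0.943) and PGA5 (0.941) for S100A8, CSF1 (0.901) and TGFBI (0.899) for S100A9, BCAT1 (0.935) and SLC2A5 (0.932) for S100A12, and CD14 (0.938) and NCF1 (0.935) for FCN1. The neighbouring values differ by little, and the order among them is not a result.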

How the data were processed

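Array intensities of 12 Affymetrix bovine arrays were used as deposited, 1 linear signal per probe set and array; the authors had scaled them, since the 2% trimmed mean was 125.03 to 125.04 on every array. The software behind them is not given in the sources used here. No detection call entered the filter. The 12 value columns matched 12 samples and 0 stayed unmapped. Of 24128 probe sets, 112 were controls, 13292 had 1 symbol in the platform table, 86 several and 10638 none.

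Signals were turned into log2(signal + 16). A probe set entered when 1 or more groups had a mean over the 40th percentile of the whole table (signal 22.5), leaving 17236 probe sets of 7893 named genes. limma 3.58.1 in R 4.3.3 fitted 1 mean per group over all 12 arrays, with eBayes (6 residual and 7.92 prior degrees of freedom), 10 contrasts, and Benjamini-Hochberg adjustment over all 17236 within each. Fold changes are on the log2(signal + 16) scale and understate changes of dim probe sets. Array medians spanned 0.38 on that scale (0.53 on log2(signal)), against a limit of 0.5 for keeping the deposited scale; quantile normalization was an alternative. With 2 arrays a group, the smallest two-sided p of an exact permutation test is 0.333. A gene stands for its brightest probe set on average, which for S100A9 is probe set 2. The fit was tested on simulated data. Replicates correlated at a Spearman's rho of 0.867 to 0.948, and 0.327 to 0.638% of their values were identical. The alternatives were other pseudocounts, filters, scaling, prior, samples, a replicate block, the S100A9 probe set and arrays left out.

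Named genes were every probe set of the 4 genes, up to 3 called genes of largest change per list and contrast, and the genes most like the 4 in profile. C1QA, CD14, TREM1, MMP9, HBB, S100A4, SERPING1, SNAI1, CXCR1, MPO, GZMB, KRT14 and the cathelicidins were also given where a statement turns on them, some chosen after their values were seen. The genes and lists were chosen with earlier results of these data known. No sequences are shown.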

Additional observations from a re-analysis of the deposited data

How the results depend on the processing

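Counts of the 4 genes called depended on single granulosa arrays in the size comparisons and little in the large-follicle layer comparison. From small to large follicles in granulosa cells the count of 4 became 1 with log2(signal + 1), 2 without both arrays that stood apart, and 0 to 4 with each replicate left out. From medium to large follicles the count of 3 became 0 with log2(signal + 1), 1 with no filter, 0 without both arrays that stood apart, and 0 to 4 with each replicate left out. Granulosa against theca gave 3 to 3 in large and 0 to 1 in medium follicles with each replicate left out, and the interaction gave 0 to 1; the other 5 comparisons stayed at 0. Over all probe sets the size counts were 0 to 635 (382 in the full fit) and 0 to 487 (117), and the large-follicle layer count 199 to 1013 (760). With other settings the first was 224 with log2(signal + 1) and 158 with log2(signal + 64), and the second 26 with log2(signal + 64) and 38 with no filter. Of 1050 changes of the 5 probe sets under alternatives, 27 changed sign, all of changes that were not called, and 0 called changes did. The cause of these shifts was not tested, beyond the fewer samples or genes in the fit.

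With the replicate number as a block, the counts of the 4 genes stayed at 4, 3 and 3 in the comparisons with calls and at 0 in the others, while 213 probe sets in place of 117 were called between medium and large granulosa follicles. Deviations of same-numbered arrays correlated above 0.1 in 6 of 15 group pairs (r from -0.335 to 0.402). Within a layer all were above 0 (0.0727 to 0.402 in granulosa, 0.140 to 0.267 in theca), and between layers 8 of 9 were below 0. A pairing within a layer was thus neither stated by the labels nor settled by these values, and the arrays were treated as sharing only a number. The number of arrays, 2 a group, limits the precision, and signals near 22.5 or below are close to the array's dim range.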
